A study of Fukomys damarensis with 16 samples.

Results

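In the Damaraland mole-rat (Fukomys damarensis), gene levels in 4 brain libraries were compared with those in 2 testis libraries, chosen by the tissue each is labelled with. These are 6 of the 16 libraries of the series, and the other 10 (kidney, liver and ovary) served only to show where the genes that differed stood elsewhere. Brain was taken from breeders of both sexes, from a non-breeding male aged 5 years and from a non-breeding female aged 3 years. The testis libraries came from a breeding male and a non-breeding male aged 5 years, and no age is given for breeders. Of the brain samples that of the non-breeding male carries the label brain and the rest frontal brain, so region goes with 1 library. No strain, treatment or altered allele is named, all libraries were made from poly(A)-selected RNA, and the labels do not say which libraries share an animal or whether animals were pooled. P-values thus measure the spread between these libraries, which may be technical in part. Age and breeding status cannot be told apart, and all testis libraries are male while 2 of the brain libraries are female.

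Brain tissue mixes neurons with astrocytes, oligodendrocytes, microglia and vessel cells, and its messenger RNA is known for long transcripts of synapse and membrane proteins. Testis holds germ cells at every stage from stem cell to sperm beside Sertoli and Leydig cells, and it is known for transcribing an unusually wide range of genes, many of them during and after meiosis. In tissue pieces such as these, fewer cells of a type and less RNA per cell cannot be told apart. The deposited table names genes by its own identifiers. Of 21082 identifiers, 0 had an entry in RefSeq's gene table (assembly DMR_v1.0_HiC), and the files pair none with a symbol. Markers of neurons, glia and germ cells could therefore not be read, so the tissue labels were not checked against markers, and genes below are described by level, length and presence elsewhere. No more than 2 identifiers a direction are printed.

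The values are RPKM, reads scaled for gene length and library size, and the whole reads behind them were recovered. The brain libraries held 15393003 to 17541246 reads on genes, and the testis libraries 18555319 (breeding) and 26730187 (non-breeding). The authors' divisor was larger than this sum, which made up 0.781 to 0.928 of it in brain and 0.665 and 0.686 in testis, so testis levels stand lower under the deposited scaling than they do if reads on genes are the measure. Across the 16196 genes tested, Pearson's r of log2(RPKM + 1) was 0.961 to 0.983 between brain libraries, 0.976 between the testis libraries and 0.413 to 0.468 between a brain and a testis library. That last range rests on the choice of genes, which takes those read in brain or testis. Over the 10139 genes at 1 RPKM or more in all 16 libraries it was 0.539 to 0.603. On the same genes r was 0.429 to 0.529 between brain and liver, 0.559 to 0.643 between brain and kidney and 0.584 to 0.672 between brain and ovary. These values describe these libraries across genes, which are not independent replicates.

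Testis reached more genes than brain, and under the deposited scaling the gap lay among weakly read genes. At 1 RPKM or more, 14178 genes stood in the non-breeding male, 14011 in the non-breeding female, 14147 in the breeding female and 14165 in the breeding male brain, against 14925 in the testis of the breeder and 15077 in that of the non-breeder. Both testes lay above all 4 brains. An exact two-sided permutation test gave p = 0.133, the smallest value that the 15 assignments of 4 and 2 libraries allow. With every library brought by calculation to 15393003 reads on genes, 15616 ± 140 genes (SD, n = 4) had 5 or more reads in brain, against 17200 and 17168 in testis. At 10 RPKM or more the tissues overlapped, with 8352 to 8566 genes in brain and 8377 and 8559 in testis. At 100 RPKM or more the mean was higher in brain, with overlap: 833 to 1066 genes in brain and 668 and 839 in testis (exact permutation p = 0.267). Counts at 10 and 100 RPKM rest on the deposited scaling, under which testis levels stand lower than by reads on genes. Genes without any read numbered 3323 to 3844 in brain and 1664 and 1327 in testis.

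Reads were spread more evenly over genes in testis. The 100 most abundant genes of a library took 16.4% to 16.9% of its reads on genes in brain and 12.7% and 12.4% in testis. Here too the tissues did not overlap, and the exact two-sided permutation p was again 0.133. The most abundant single gene took 0.588% to 0.716% in brain and 0.702% and 0.895% in testis.

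Of 16196 genes at 1 RPKM or more in at least 2 of the 6 libraries, 3973 were higher in brain and 4299 higher in testis by limma, at a Benjamini-Hochberg adjusted p of 0.05 or less and a log2 difference of at least 1 either way. These are 24.5% and 26.5% of the genes tested, 51.1% together. Without the minimum difference the counts were 5469 (33.8%) and 5899 (36.4%). The median gene differed by -0.05 on the log2 scale, brain minus testis. When reads on genes set the scale, that median was -0.37, and 3323 genes were higher in brain and 5512 in testis, which lowers the share of calls that are higher in brain from 48.0% to 37.6%. Without the non-breeding testis 2734 genes were higher in testis, because a gene read in testis alone then reaches 1 RPKM in a single library and is not tested. With the genes tested in all 6 kept, 3888 were. With 1 RPKM required in all 6 libraries 2888 genes were higher in brain and 2374 in testis.

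Under the deposited scaling large differences were about as many in each direction, except the largest, which were more often toward testis. A log2 difference of 3 or more was seen in 1084 genes higher in brain and 1028 higher in testis, and of 5 or more in 262 and 274. At 7 or more there were 33 and 56, and at 8 or more 6 and 19. The median size among called genes was 2.03 in brain and 1.90 in testis. Held at their lower bound, the genes with 0 reads in the opposite tissue (33 and 313) left these medians at 2.04 and 1.96. All 4 brains lay above both testes in 6027 genes (37.2% of those tested), and both testes above all 4 brains in 6442 (39.8%). Of the called genes 3965 of 3973 and 4281 of 4299 had libraries that did not overlap.

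The males were also compared by class, breeder with breeder and non-breeder with non-breeder. Between the breeding male brain and testis 3988 genes (24.6%) were higher in brain and 4093 (25.3%) in testis by 1 or more on the log2 scale. Between the non-breeding male brain and testis 4110 (25.4%) and 4694 (29.0%) were. In both pairs at once 3281 genes were higher in brain and 3563 in testis, and 15 went opposite ways, none of them (0) among the called genes. These pairs are part of the tested libraries and add no independent support.

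**Figure D1:**
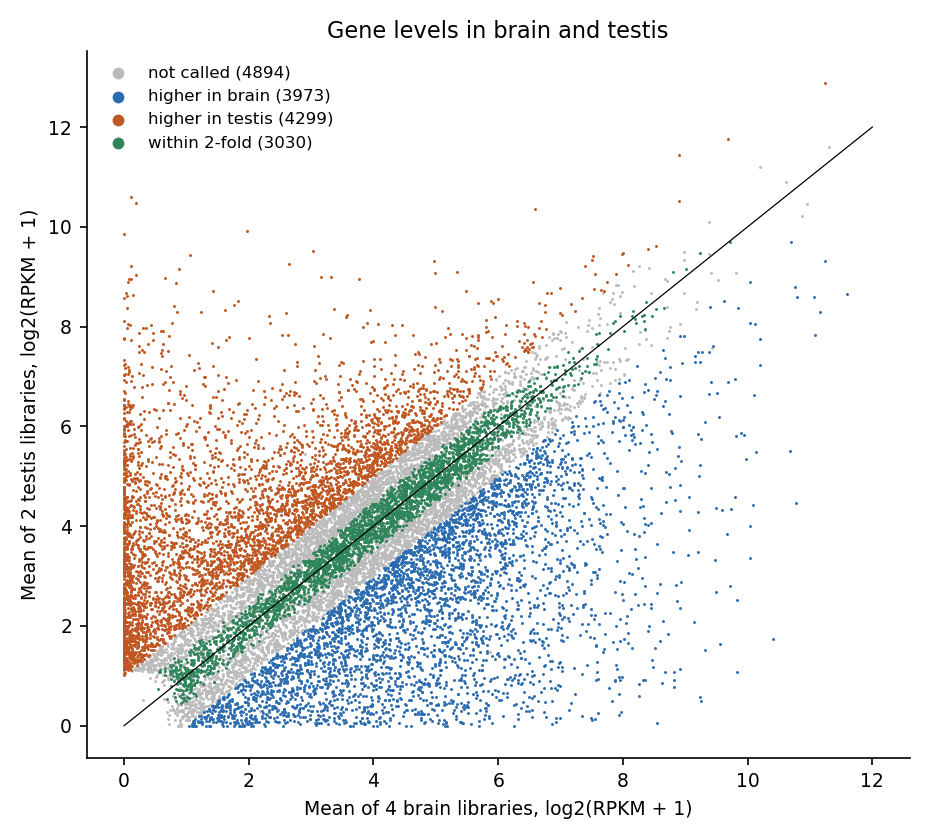
Mean level of each of 16196 genes in 4 brain libraries (x axis) and 2 testis libraries (y axis), both as log2(RPKM + 1), coloured by call, with the line of equal levels. Genes higher in testis lie above the line and genes higher in brain below it, at medians of 2.17 RPKM in brain for the former and 3.8 in testis for the latter; the 3030 genes within 2-fold follow the line.

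The gene with the largest difference toward brain, DMR_14715 (coding length 1815 bases), was abundant in every brain library. It stood at 984.8 RPKM in the non-breeding male, 929.3 in the non-breeding female, 972.1 in the breeding female and 770.6 in the breeding male brain, and at 1.07 and 1.13 in the breeding and non-breeding testis. Every brain library was far above either testis, and the brains differed little among themselves (914.2 ± 98.6, SD, n = 4). The log2 difference was 8.76 (SE 0.18, limma adjusted p = 2.56e-08). Kidney libraries held at most 0.995 RPKM of it, liver at most 0.415 and ovary 1.40 to 3.03.

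DMR_14030, a short gene of 330 bases of coding length, had the same fitted difference and a wider spread. It stood at 680.8 RPKM in the non-breeding male, 978.1 in the non-breeding female, 651.5 in the breeding female and 317.1 in the breeding male brain, and at 0.435 and 0.389 in the testes, which rest on 4 and 5 reads. The breeding male brain was the lowest of the 4 and still far above both testes. The log2 difference was 8.76 (SE 0.38, limma adjusted p = 1.61e-07). No ovary library held a read of it, and liver reached at most 5.35 RPKM.

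DMR_05375 led toward testis, with a coding length of 252 bases. The breeding testis held 1330 RPKM and the non-breeding testis 1791, the breeding male brain 0.354 and the other 3 brains 0. The brain value rests on 2 reads. The log2 difference was -10.5 (SE 0.22, limma adjusted p = 2.56e-08). It was not restricted to testis in the series: liver libraries held 1.49 to 181 RPKM and kidney up to 9.57.

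DMR_01561 (564 bases) stood at 1217 and 1689 RPKM in the breeding and non-breeding testis. In brain it was read in both males, at 0.201 RPKM from 2 reads in the non-breeding and 0.395 from 5 reads in the breeding male, and at 0 in both females. The log2 difference was -10.3 (SE 0.22, limma adjusted p = 2.56e-08). No read of it was found in ovary, and kidney and liver held at most 0.507. The fitted difference of a gene near 0 in a tissue depends on the pseudocount of 1.

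Among the 20 leading genes of each direction, those of brain stood at 135.0 to 1646 RPKM in brain and at no more than 2.56 in testis. Those of testis stood at 194.0 to 1791 RPKM in testis and at no more than 5.35 in brain. Both lists were drawn from the called genes, so each gene passed by construction, with limma adjusted p of at most 6.69e-07. Brain's leading genes had a median coding length of 682 bases and those of testis of 571, both below the 1275 of all genes tested. In the 10 kidney, liver and ovary libraries, which the comparison did not use, 4 of brain's 20 and 9 of testis's 20 stayed under 1 RPKM throughout. Of brain's 20 genes 12 reached 1 RPKM in an ovary library, 11 in a kidney library and 5 in a liver library. Of testis's 20 the numbers were 9, 5 and 5.

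Genes read in 1 of the tissues alone were far more numerous in testis. At 1 RPKM or more in both testes and under 0.1 in all 4 brains were 464 genes, and the reverse held for 96. Scaling to reads on genes left 58 on the brain side and gave 523 on the testis side. The threshold in both testes limits either side: without the breeding testis 157 genes and without the non-breeding testis 167 were brain's alone. Testis's alone were then 569 and 504. With 0 reads in the other tissue there were 313 and 23. The genes of testis alone had a median level of 5.72 RPKM and a median coding length of 784 bases, and those of brain alone 7.55 RPKM and 918 bases. Of the 464 genes 178 averaged 10 RPKM or more, and of the 96 genes 40 did.

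The other tissues also lacked a part of these genes. Of the 464 genes of testis alone 193 (41.6%) were under 0.1 RPKM in all 10 kidney, liver and ovary libraries, and of the 96 of brain alone 25 (26%) were. This share was not counted over all genes tested, and these genes were tested only because 1 tissue held them. Both shares are therefore a description. Both ovary libraries held 37 of the testis genes at 1 RPKM or more, against 26 in all kidney and 10 in all liver libraries. For brain's genes the numbers were 3 in ovary, 7 in kidney and 3 in liver.

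Several of these were strongly read where present. The most abundant gene of brain with no testis read (coding length 1224 bases) stood at 78.1, 87.8, 84.7 and 54.3 RPKM in the non-breeding male, non-breeding female, breeding female and breeding male brain, from 1493 to 2104 reads. Its absence from testis is bounded by 3 reads over both libraries, 0.0367 RPKM, so it was at least 1480-fold higher in the lowest brain library. The next one (1869 bases) stood at 54.6, 52.5, 66.4 and 34.2 RPKM in the same order, at least 1430-fold higher in the lowest. In both genes the breeding male brain was the lowest library. Toward testis, a gene of 351 bases stood at 864.9 and 982.5 RPKM in the breeding and non-breeding testis with 0 reads in all brains, at least 7840-fold higher in the lower of them. A gene of only 99 bases stood at 193.8 and 753.8 RPKM, at least 495-fold higher in the lower, and the non-breeding testis held most of its reads (2907 against 535). That gene also reached 42.6 RPKM in liver. Bounds cover counting error only.

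**Figure D2:**
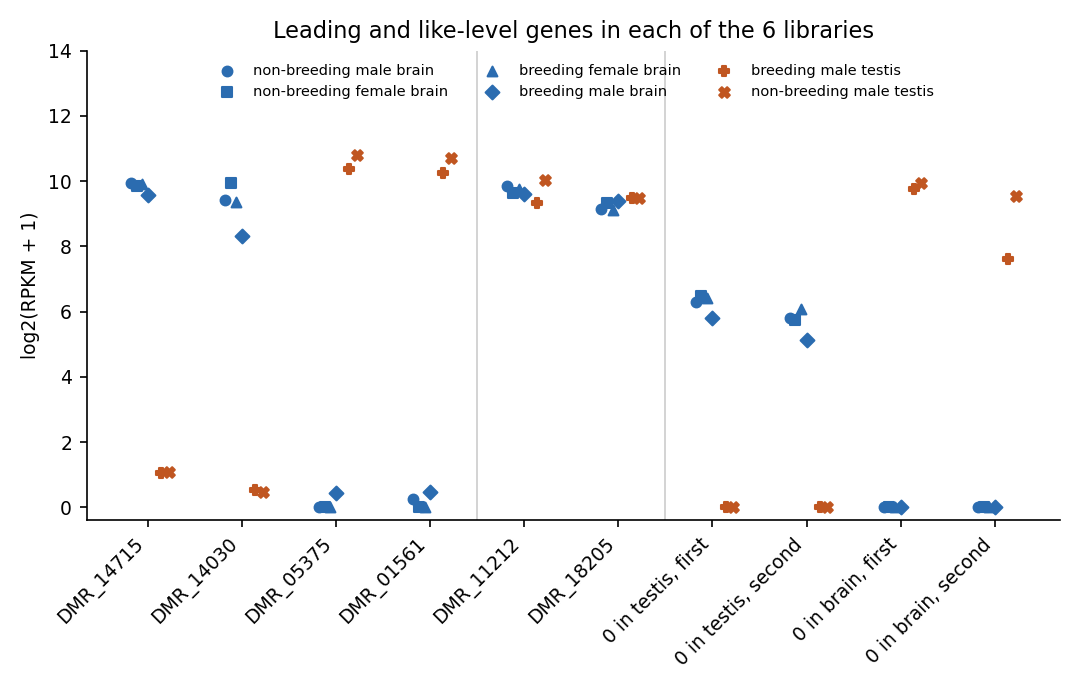
Level of 10 genes as log2(RPKM + 1) in each of 4 brain (blue) and 2 testis (orange) libraries, 1 marker a library; the left part holds the leading genes of each direction, the middle part the like-level genes and the right part the most abundant genes with 0 reads in the opposite tissue. Brain and testis markers are far apart at left and right and lie close together for DMR_11212 and DMR_18205.

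What the tissues share was asked in 2 ways, by presence and by level. At 1 RPKM or more in all 6 libraries were 12204 genes, 91.1% of the 13398 genes at that level in all brains and 83.9% of the 14550 in both testes. Together they accounted for 94.2% to 94.7% of reads on genes in brain and for 91.9% and 90.4% in testis. Presence did not mean a like level: 2886 of the 12204 were called higher in brain and 2372 higher in testis, 43.1% together. A further 989 genes were under 0.1 RPKM in all 6 libraries.

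To ask for likeness directly, each difference was tested against bounds of 2-fold. The bounds are set on RPKM + 1, so a low gene within them can differ by more in RPKM. By this pair of one-sided limma tests 3030 genes (18.7% of 16196) had a difference within 2-fold at an adjusted p of 0.05, and 2806 of them were at 1 RPKM or more in all 6 libraries. Their median level was 14.7 RPKM in brain and 14.7 in testis. This count depends on the libraries. It was 1762 without the non-breeding female brain, 1944 without the non-breeding male brain and 0 without either testis, when 3555 (breeding testis left out) and 3729 genes (non-breeding left out) had an unadjusted p under 0.05. Bounds of 1.5-fold were passed by 0 genes, with an unadjusted p under 0.05 in 1504. Voom on the recovered reads gave 2026 genes within 2-fold. Of the 3030, voom called 11 different between the tissues, and a pseudocount of 0.1 called 9. With scaling to reads on genes 2221 genes passed, 1434 of them among the 3030. Neither different by the rule nor within 2-fold were 4894 genes (30.2%), for which the libraries give no call.

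DMR_11212, of 510 bases, was the most abundant gene called at a like level. It stood at 915.0 RPKM in the non-breeding male, 792.0 in the non-breeding female, 869.9 in the breeding female and 782.4 in the breeding male brain, and at 643.1 and 1056 in the breeding and non-breeding testis. The testes bracketed all 4 brains. The log2 difference was 0.02 with a 95% interval from -0.65 to 0.70 (limma adjusted p of the 2 one-sided tests 0.035). The gene was lower elsewhere, with 194 to 266 RPKM in kidney, 145 to 213 in liver and 114 to 181 in ovary.

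DMR_18205 (2625 bases) stood at 562.9, 641.1, 550.3 and 671.6 RPKM in the brains, in the same order, and at 714.3 and 712.1 in the testes. Both testes lay just above all brains. The log2 difference was -0.24 with a 95% interval from -0.79 to 0.32 (adjusted p of the 2 one-sided limma tests 0.04). Unlike the first, it was higher in the other tissues, at 816 to 1240 RPKM in liver and kidney and 1290 to 1450 in ovary. Both calls were narrow. Over 21 alternatives the log2 difference stayed within 2-fold, from -0.71 to 0.38 for DMR_11212 and from -0.83 to -0.19 for DMR_18205. The test of likeness passed in 8 of the 21 for each, with adjusted p from 0.01 to 0.406 and from 0.0196 to 0.625.

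The most abundant genes were shared in part. Of the 100 genes with the highest mean in brain and the 100 highest in testis, 29 stood in both lists (29% of each), and of the top 1000, 350 did (35% of each). Between single libraries of different tissues 19 to 35 of the top 100 were the same, against 72 to 91 between brain libraries and 79 between the testes. A list chosen for a high level in a tissue favours the call toward that tissue, so the next counts are a description. Of the top 100 of brain 75 were called higher in brain, against 24.5% of all genes tested, and 2 averaged under 1 RPKM in testis. Of the top 100 of testis 58 were called higher in testis, against 26.5%, and 16 averaged under 1 RPKM in brain.

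Reads followed the calls unevenly. Genes higher in brain made up 51.7% to 55.0% of reads on genes in the brain libraries and 12.3% and 11.1% in the testes. The calls themselves fix that direction. Genes higher in testis took 35.6% and 39.7% in the breeding and non-breeding testis and 5.40% to 6.87% in brain. The like-level genes took 15.7% to 17.1% in brain and 21.4% and 20.1% in testis.

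**Figure D3:**
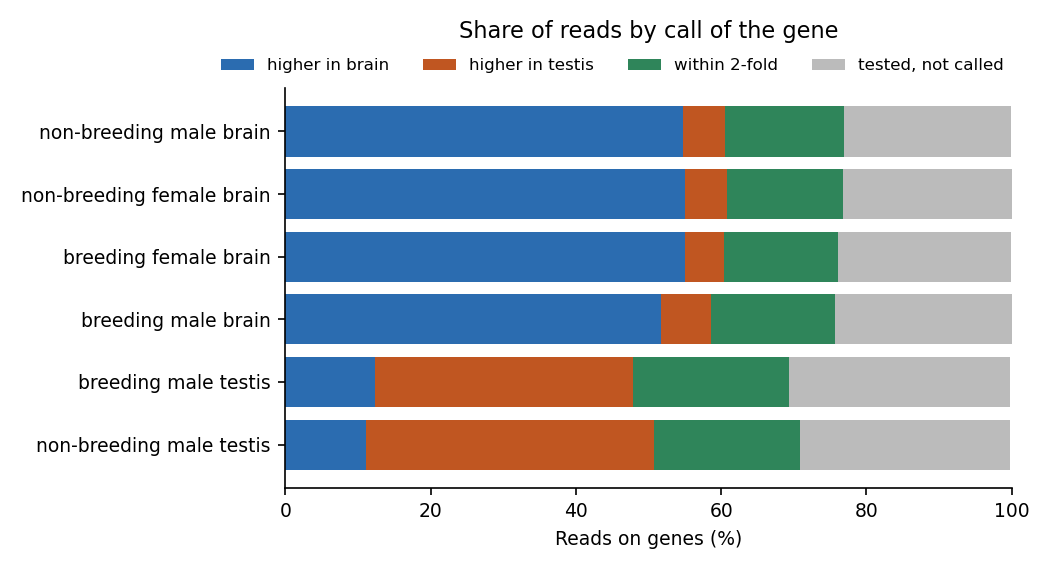
Share of reads on genes (x axis, %) in each of 6 libraries (y axis) that fell on genes higher in brain, higher in testis, within 2-fold, or tested without a call. Genes higher in brain fill 51.7% to 55.0% of each brain bar, and genes higher in testis fill 35.6% and 39.7% of the testis bars.

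How strongly a gene was read went with the direction of the call, though at low levels the rule for testing a gene takes part in this. Genes were placed by their mean log2(RPKM + 1) over both tissues. Between 3 and 4, 25.3% of 3523 genes were higher in testis and 26% higher in brain, and between 6 and 7 15.8% and 22.7% of 780 were. At 7 or more 18% of 344 genes were higher in testis and 31.7% higher in brain. With scaling to reads on genes testis led at every level, with 28.8% against 25.3% at the highest. Under a level of 1, 37.0% of 854 genes were higher in testis and 13.6% higher in brain, but 407 of the 854 reached 1 RPKM in both testes and no brain, and 351 in brain libraries and no testis. Such genes were tested only because 1 tissue held them, so these low shares show no preference for either tissue. With 1 RPKM required in all 6 libraries, a rule that removes genes absent from a tissue, 21.4% of 2147 genes between 2 and 3 were higher in testis and 23.0% in brain, against 33.5% and 27.2% of 3083 without that demand.

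Coding length differed too. The median was 1347 bases for genes higher in brain, 1137 for those higher in testis and 1485 for the like-level genes. The genes were split into 5 equal bins of coding length. In the shortest bin (under 630 bases) 32.9% were higher in testis and 21.9% in brain, and in the longest bin (2460 bases or more) 21.3% and 27.7%. Of the 3224 shortest genes 506 reached 1 RPKM in both testes and no brain, and of the 3241 longest 192 did. With 1 RPKM required in all 6 libraries the shares were 22.2% in testis and 21.4% in brain in the shortest bin, and 16.8% and 26.4% in the longest. Short genes have fewer reads, with a median of 93 reads a library in the shortest and 1404 in the longest bin. Among genes averaging 100 or more reads a library the shares were 29.6% and 24.9% in the shortest bin and 21.1% and 28.3% in the longest. With scaling to reads on genes testis led in every bin, by 40.3% against 18.9% in the shortest and 28.4% against 23.0% in the longest.

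**Figure D4:**
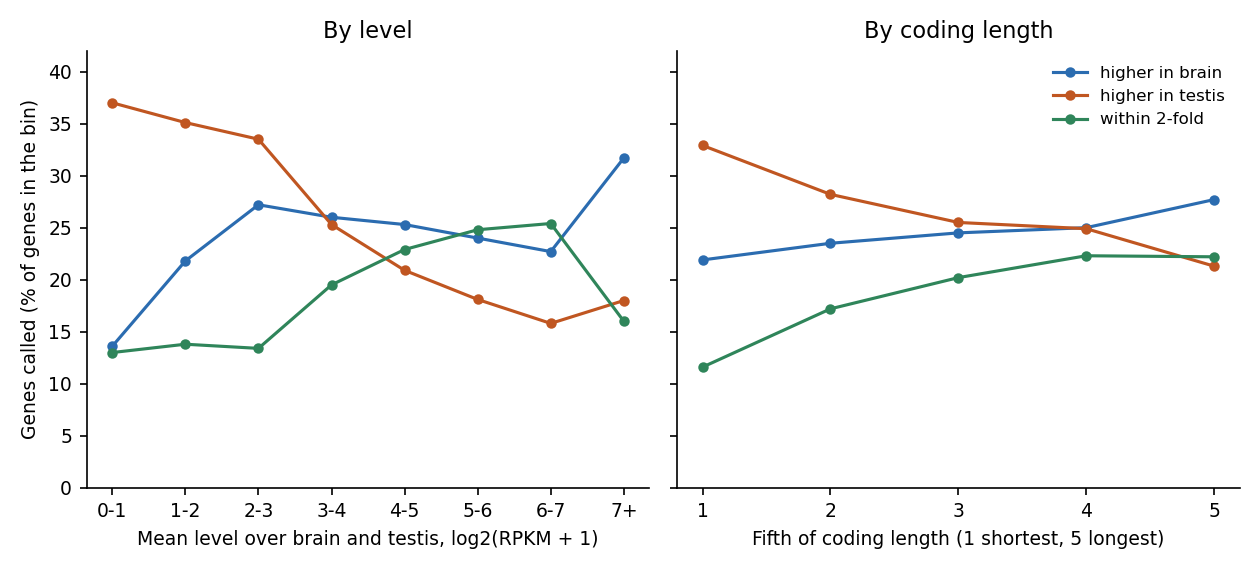
Share of genes called (y axis, % of genes in the bin) as higher in brain, higher in testis or within 2-fold, by mean level as log2(RPKM + 1) (left) and by 5 bins of coding length (right), under the deposited scaling. The testis line falls from 37.0% at the lowest level to 15.8% at the last but one, with 18% at the highest, and from 32.9% to 21.3% over the lengths; under a level of 1 most genes were tested because 1 tissue alone held them.

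Kidney, liver and ovary were not used in the comparison, but the rule for testing a gene takes part in their shares. It admits genes held by 1 tissue alone. At 1 RPKM or more in all 6 libraries were 55.2% of genes higher in testis and 72.6% of those higher in brain. Genes higher in testis were the more often absent from kidney, liver and ovary. Of these 917 of 4299 (21.3%) stayed under 1 RPKM in all 10 libraries. That compares with 535 of 3973 (13.5%) of those higher in brain and 10.6% of all genes tested. All 10 libraries held 53.2% of brain's genes and 49.2% of testis's genes at 1 RPKM or more, against 65.7% of all genes tested. For like-level genes this was 85.8%, and 54 of 3030 (1.78%) were absent. All genes tested are an unlike baseline for these. At 1 RPKM or more in all 6 brain and testis libraries were 92.6% of like-level genes and 75.4% of all genes tested. Of the 12204 genes that met this in all 6, whatever their difference, 10139 met it in all 16. A part of a like level beyond presence in both tissues was not tested. In ovary, the other gonad, 65.1% of the genes higher in testis and 70.2% of those higher in brain stood at 1 RPKM or more in both libraries, against 78.4% of all genes tested. The order was the same in all kidney (58.6%, 69.0% and 75.2%) and all liver libraries (55.0%, 58.8% and 70.6%).

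The called genes were also placed against the 10 other libraries. A call toward a tissue favours that tissue standing above the rest, and the same shares over all genes tested were not counted. Counts above and below also ask for different numbers of libraries, all 4 brains or both testes, so they only describe these genes. Of the genes higher in brain, 2313 (58.2%) had all 4 brains above all 10 other libraries, and 1093 (27.5%) had both testes below all of them. Of the genes higher in testis, 2782 (64.7%) had both testes above all 10, and 875 (20.4%) had all brains below all 10. A gene can be in both counts, as 232 and 177 were. With scaling to reads on genes the shares standing above were 60.9% and 72.3%, and those standing below 12.3% and 11.8%.

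Brain and testis together also stood apart from the rest in a few genes. In 319 genes all 6 libraries were 2-fold or more above all 10 others on the log2(RPKM + 1) scale, and in 177 they were 2-fold or more below. Of the 319 genes 50 (15.7%) were at a like level in the 2 tissues, 157 (49.2%) were higher in brain and 39 (12.2%) higher in testis, against 18.7%, 24.5% and 26.5% of all genes tested. With scaling to reads on genes the counts were 452 and 96.

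**Figure D5:**
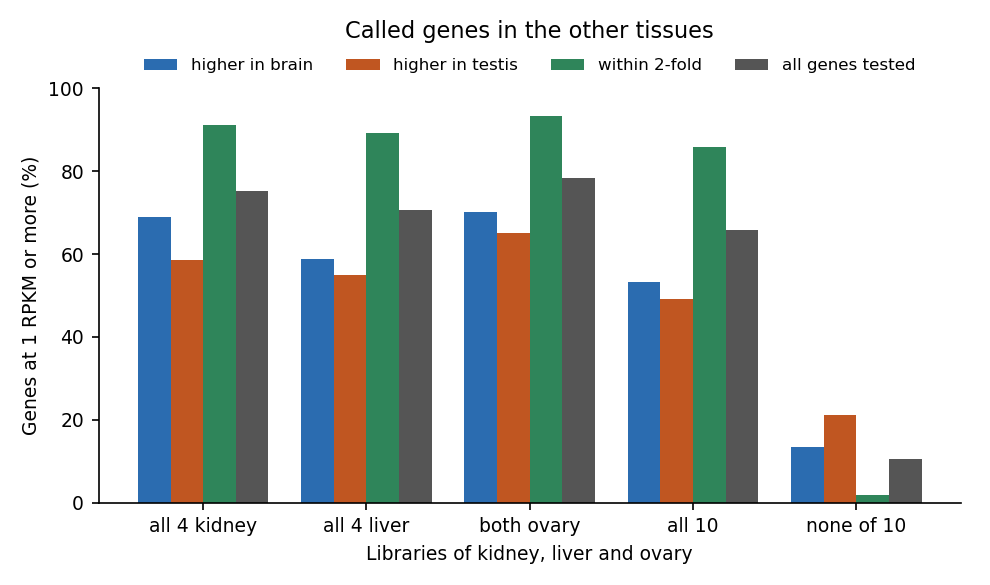
Share of genes (y axis, %) at 1 RPKM or more in all kidney, all liver, both ovary or all 10 of these libraries, and share at 1 RPKM or more in none of them, for genes higher in brain, higher in testis, within 2-fold, and all genes tested. Genes within 2-fold reach 85.8% in all 10 libraries, and genes higher in testis have the highest bar for none, 21.3%.

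Breeding status was then asked of the same 6 libraries: whether the breeding difference was another one in brain than in testis. By limma's interaction term 0 of 16196 genes (0.0%) passed an adjusted p of 0.05, with a smallest adjusted p of 0.248. An unadjusted p under 0.05 was seen in 896 genes, and voom on the recovered reads called 0 with 435 such genes. This fit has 2 residual degrees of freedom, all from the sexes within brain. Within testis, with 1 library a status, 242 of the 4299 genes higher in testis (5.63%) were 2-fold or more lower in the breeding library and 20 higher. Among genes higher in brain 39 (0.982%) were lower and 25 higher, and among all genes tested 2.28% were lower and 0.506% higher. Median levels in testis were 18.7 RPKM for genes higher in testis and 3.8 for those higher in brain. The log2(RPKM + 1) scale understates changes of low genes, so these shares are not of like sets. In brain, 13 genes (0.0803% of those tested) were 2-fold or more higher in the breeding library of both sexes and 5 (0.0309%) lower. None of them (0) were among like-level genes, but that call asks for a small spread over these same brains. That 0 therefore says nothing of breeding status.

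Sex splits the brain libraries for a small group of genes, chosen after their values were seen. In 10 genes both male brains held 10 or more reads and the female brains together at most 1, and 0 genes met the reverse. The testes did not enter this choice, and both held reads of all 10 genes, from 0.22 to 38.5 RPKM in the breeder and from 0.262 to 46.8 in the non-breeder. The male brains held 1 to 60.6 RPKM. With 4 brains in the fit 2 of the 10 were called, both higher in testis. Between the male brains and the testes alone 3 were higher in brain (log2 differences 1.15 to 1.23) and 2 higher in testis (-1.06 and -1.35), at limma adjusted p of 0.00487 to 0.033, where 24.5% and 26.7% of 15967 genes were called. The other 5 did not pass, with differences of 0.03 to 0.56.

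The breeding male brain stood somewhat apart from the other brains. It was 2-fold or more above each of the other 3 in 62 genes and below in 47, against 4 to 33 above and 16 to 25 below for the other brains. Of those 62 genes 21 (33.9%) were among the genes higher in testis, against 26.5% of all genes tested. Another 13 (21.0%) were among those higher in brain, against 24.5%. Genes higher in testis took 6.87% of its reads against 5.40% to 5.79% in the other brains. Over the 9 leading testis genes under 1 RPKM in kidney, liver and ovary it held 22 reads, where the other brains held 1 to 2 and the testes 94321 and 132106. Such a number was not particular to this brain, but outside testis it was seen in breeding libraries only. Of the same genes the breeding male kidney and breeding female ovary held 23 reads each. The breeding female liver held 40 and the breeding male liver 22. Other breeding libraries held few, with 1 read each in the breeding female brain and kidney. Non-breeding kidney, liver and ovary libraries held 1 to 10. Relative to reads on genes, only the breeding female liver held more outside testis than the breeding male brain. A link with breeding status was not tested. The part of the 22 reads in the results was not tested either, but without the breeding male brain 4047 genes were higher in brain and 4403 higher in testis.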

How the data were processed

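Poly(A) RNA of 6 libraries was compared, 4 of brain and 2 of testis, grouped by the tissue in their labels. The authors deposited RPKM values in a single table. TopHat 1.3.1, an aligner of spliced reads, is listed in the submitters' processing notes. Genome build, annotation, counter and use of strand: not given in the sources used here. Genes that overlap or share reads with a near-identical copy are therefore uncertain. All 16 columns were mapped to libraries by title. Whole reads, lengths (in a unit of 3 bases, taken as coding lengths) and divisors were recovered from the RPKM for 100% of 21082 genes, within 1e-06 of a whole read or 1e-11 of its size. The shortest length that turned every value of a gene into whole reads was taken. For a gene read in few libraries, length and reads can therefore be too small by a shared factor. What the divisor counts is not known, nor whether an end or a pair is a read.

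The test was limma's moderated linear model (limma 3.58.1, R 4.3.3, eBayes with trend, 4 residual degrees of freedom), run on log2(RPKM + 1) of genes at 1 RPKM or more in at least 2 of the 6 libraries, with Benjamini-Hochberg adjustment over all of them. This scale understates changes of low genes. Likeness within 2-fold was tested by 2 one-sided tests of the same fit, the larger p adjusted. Library values were compared by exact permutation (SciPy 1.17.1, Python 3.11.15). The recovery of reads and the limma fit were tested on simulated data. The genes named are the 2 with the largest difference each way among genes without overlap, the 2 most abundant at a like level, and, without identifiers, the 2 most abundant a side with 0 reads in the other tissue. The comparison, lists and thresholds were chosen with earlier results of these data known. Cell type markers and sequences were not used, as identifiers could not be paired with names.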

Additional observations from a re-analysis of the deposited data

Results flagged for a closer look

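Among the 4 brain libraries 3 values had a gap that set 1 library apart from the rest, where chance alone sets apart about 1 group in 20. How many values were screened is not given here, so the 3 cannot be weighed against chance. DMR_05375, a leading testis gene, stood at 0.3535 RPKM, from 2 reads, in the breeding male brain and at 0 in the other 3. The non-breeding female brain had 16667 genes at 0.1 RPKM or more, against 17015 to 17068 in the other brains. Genes higher in brain, as called from these same libraries, took 51.7% of the reads on genes in the breeding male brain, against 54.8% to 55.0% in the others.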

How the results depend on the processing

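The 4 leading genes passed the limma threshold under every alternative that tested them, 18 to 21 each, with adjusted p from 1.74e-15 to 0.000544. Over the settings other than a minimum difference the count higher in brain stayed within 1.5 times its value. It was 3913 to 4047 with a library left out, and a minimum log2 difference of 2 gave 2024 in brain and 2001 in testis. The count higher in testis was 2374 with 1 RPKM required in all 6 libraries, a filter that removes genes absent from brain (the shares by level and length under it were added after seeing the data), and 2734 to 4403 with a library left out. Leaving out a testis with the genes of the full comparison kept, an alternative chosen after seeing the data, gave 3755 and 3671 genes higher in brain and 4264 and 3888 higher in testis. No called gene was called in the opposite direction under any setting run. The like-level count was the least stable: 1400 with a pseudocount of 0.1, 7684 without a filter, 0 with male libraries alone, 0 with bounds of 1.5-fold and 0 to 2998 with a library left out. With males alone 4405 genes had an unadjusted p under 0.05. The cause was not tested, beyond the fewer samples and the added low genes by construction. With the 2 male classes as a replicate block, 2 brains against 2 testes, 3935 genes were higher in brain, 4291 in testis and 0 at a like level, with an unadjusted p under 0.05 for likeness in 3996. The labels do not pair libraries by animal, and the breeding differences of male brain and testis correlated at -0.193 across genes. The status by tissue count was 1422 without a filter and 0 with a brain left out; of the 1422, 1276 had no read in any brain and so add no spread. Brain's own genes numbered 58 with scaling to reads on genes, 22 with 10 or more reads against 0, and 98 to 167 with a library left out. Testis's own genes numbered 523, 404 and 503 to 569 in the same settings. The difference in genes detected, brain minus testis, was -875.75 at 1 RPKM, -1567.8 at equal depth with 5 or more reads, -1682.2 at 0.1 RPKM and -11.5 at 10 RPKM. At 0.5 RPKM 8.63% of brain's genes, 15.1% of testis's genes and 0.792% of like-level genes were absent from kidney, liver and ovary. With 2 testis libraries the spread in testis rests on 1 difference, and every test borrows the spread of brain.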
